A study of Mus musculus with 7 samples.

Results

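A set of 54 genes had clearly lower RNA in both H19/Igf2 terminator mutants than in wild-type (WT) prospermatogonia, the fetal male germ cells that precede spermatogonia. Members were chosen by their measured log2 CPM in all 7 libraries. A gene was a member when its lowest WT value lay at least 0.8 above its highest mutant value and its WT mean was at least 1, both in log2 CPM, where CPM is a gene's count of read pairs scaled to the size of its library. Genes with no symbol and genes whose symbol begins with Gm and a digit, contains -ps or ends in Rik were left out, which removed 22 of the 76 genes that met the numbers. The 54 were found among 20643 genes in the table. They were 0.461% of the 11701 genes with a kept symbol and a WT mean of at least 1, and 302 genes met the same numbers in the opposite direction. Because the difference between WT and mutant libraries chose the members, their lower values in the mutants are given as a description and carry no test. In the whole table, both WT libraries lay above all 5 mutant libraries for 23.8% of genes, so separation without the 0.8 gap was common.

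The study inserted a transcription terminator (Ter) next to the imprinting control region (ICR) of the H19/Igf2 domain to stop the broad low-level transcript of prospermatogonia, and total RNA was sequenced in 7 libraries of germ cells sorted at 15.5 dpc. The 3 libraries numbered 5, 6 and 7 came from fetuses homozygous for H19Ter+neo, which carries the terminator and the Pgkneo selection cassette, 2 libraries (3 and 4) came from fetuses homozygous for H19Ter, from which Cre recombination had removed Pgkneo, and 2 libraries (1 and 2) came from WT fetuses. The mutant fetuses carried an enhanced green fluorescent protein (EGFP) transgene under the Pou5f1 promoter from the TgOG2 line, used for sorting. Both alleles go back to 1 targeted line of embryonic stem cells, and the founders were bred with females that carried mutated CTCF sites in the ICR. The sources used here do not state the strain background of the WT libraries, so genotype and strain cannot be told apart. Up to 8 testes were digested together and no source names the litters behind a library, so the tests below measure the spread between libraries. In these sorted bulk samples, fewer cells of a type and less RNA per cell cannot be told apart.

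Nodal is a secreted ligand of the TGF-beta family that signals through activin receptors and SMAD2 and SMAD3 to the forkhead factor FOXH1, and it switches on its own gene and those of its inhibitors, Lefty1 and Lefty2. In the early embryo this loop sets the axes and keeps cells of the epiblast uncommitted. In fetal testes, male germ cells pass through a phase of Nodal signalling and lose pluripotency factors as they enter mitotic arrest. Several members belong to this loop or are known targets or partners of it in the embryo. The remaining members were grouped by role after their values were seen.

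Promoters of the members were often poor in CG pairs, and 5 RefSeq promoters of build GRCm38.p6 are shown because they span that range among members the results turn on. Each runs from 250 bases before to 50 after the start of transcription, 5′ to 3′ on the strand of the gene, with every CG pair in capitals. Gng13 (chr17:25716922-25717221, plus strand), Noct (chr3:51224197-51224496, plus strand) and Kndc1 (chr7:139894446-139894745, plus strand) were among the members with the largest gaps. L1td1 (chr4:98726504-98726803, plus strand) differed most clearly between the mutants. Lhx1 (chr11:84525485-84525784, minus strand) was grouped by role with the Nodal pathway and other developmental factors.
Gng13: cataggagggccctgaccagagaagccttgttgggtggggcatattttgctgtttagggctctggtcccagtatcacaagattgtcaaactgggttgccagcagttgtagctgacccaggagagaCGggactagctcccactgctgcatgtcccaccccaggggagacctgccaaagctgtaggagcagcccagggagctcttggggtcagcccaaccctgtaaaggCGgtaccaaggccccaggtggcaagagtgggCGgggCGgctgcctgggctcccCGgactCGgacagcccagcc
Noct: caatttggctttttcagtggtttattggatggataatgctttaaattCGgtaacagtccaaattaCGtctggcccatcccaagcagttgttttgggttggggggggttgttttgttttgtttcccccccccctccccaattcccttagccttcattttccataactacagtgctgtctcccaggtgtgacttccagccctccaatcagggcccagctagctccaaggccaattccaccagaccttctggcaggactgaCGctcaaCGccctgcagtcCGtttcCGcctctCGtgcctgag
Kndc1: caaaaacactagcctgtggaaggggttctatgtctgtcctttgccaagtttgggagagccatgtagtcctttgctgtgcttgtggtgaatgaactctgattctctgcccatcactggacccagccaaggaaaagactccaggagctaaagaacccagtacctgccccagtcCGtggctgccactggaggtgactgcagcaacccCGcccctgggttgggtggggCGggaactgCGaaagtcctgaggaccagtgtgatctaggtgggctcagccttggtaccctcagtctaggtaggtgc
L1td1: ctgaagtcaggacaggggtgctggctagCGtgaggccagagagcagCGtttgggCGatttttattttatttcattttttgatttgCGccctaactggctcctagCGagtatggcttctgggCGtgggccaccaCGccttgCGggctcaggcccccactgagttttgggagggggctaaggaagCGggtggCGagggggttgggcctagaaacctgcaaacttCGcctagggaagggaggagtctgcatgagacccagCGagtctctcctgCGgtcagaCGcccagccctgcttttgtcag
Lhx1: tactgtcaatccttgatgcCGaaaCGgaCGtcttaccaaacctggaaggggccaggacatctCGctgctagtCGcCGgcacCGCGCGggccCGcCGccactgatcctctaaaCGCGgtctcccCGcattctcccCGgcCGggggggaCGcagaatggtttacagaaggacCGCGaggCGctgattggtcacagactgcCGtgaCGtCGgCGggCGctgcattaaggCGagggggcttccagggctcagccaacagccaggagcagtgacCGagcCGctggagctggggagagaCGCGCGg
Gng13 holds 6 CG pairs, Noct 7, Kndc1 4, L1td1 14 and Lhx1 31.

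The libraries held 84.1, 86.3 and 87.3 M read pairs in H19Ter+neo, 51.2 and 37.5 M in H19Ter, and 45.1 and 45.9 M in WT. H19 itself was at 5.10 to 5.36 log2 CPM in H19Ter+neo, 5.36 and 5.70 in H19Ter, and 5.48 and 5.52 in WT, and none of its 3 comparisons passed the threshold (adjusted p = 0.106, 0.876 and 0.102, limma). Igf2 was at 0.80 to 1.05 in H19Ter+neo, 0.94 and 1.06 in H19Ter, and 0.60 and 1.11 in WT. Gm33148, which lies beyond the insertion, was at 1.91 to 2.11 in H19Ter+neo, 1.67 and 1.68 in H19Ter, and 2.18 and 2.49 in WT, and fell in H19Ter against WT by 0.66 on the log2 scale (adjusted p = 0.0187, limma). All 14 germ cell markers were detected in every library, with a summed level of 5198 to 5389 CPM in H19Ter+neo, 4593 and 4709 CPM in H19Ter, and 4856 and 5027 CPM in WT. No member belonged to a marker list of another cell type. The 7 measured Leydig markers summed to 7.45 to 33.9 CPM in H19Ter+neo, 13.4 and 30.4 CPM in H19Ter, and 14.3 and 18.5 CPM in WT, highest in H19Ter+neo library 5 and H19Ter library 3. The 13 interstitial and peritubular markers summed to 51.0 to 132.2 CPM over all libraries and were highest in the same libraries, with no marker of either list at 0 reads. The 7 mesonephric and other epithelial markers measured summed to 126 to 159 CPM in H19Ter+neo, 216 and 183 CPM in H19Ter, and 249 and 278 CPM in WT. The 4 muscle markers measured summed to 8.44 to 9.54 CPM in H19Ter+neo, 19.2 and 16.4 CPM in H19Ter, and 19.5 and 28.4 CPM in WT. Both sums were lower in every mutant library than in WT, as the members were. The median marker went the other way, with differences from WT of 0.30 (epithelial) and 0.91 (muscle) in H19Ter+neo and 0.87 and 0.45 in H19Ter. In H19Ter+neo against WT, 2 epithelial markers rose and 2 fell, and 2 muscle markers rose and 1 fell. In H19Ter against WT, 3 epithelial markers rose and 2 fell, and 2 muscle markers rose and 0 fell. The part of such cells in the members' values was not tested. None of 33 measured genes listed as differing between laboratory mouse strains was a member. Of these 33, 11 rose and 11 fell in H19Ter+neo against WT, where 27.7% of all genes rose and 26.7% fell. In H19Ter against WT, 10 rose and 10 fell, where 14.1% of all genes rose and 11.0% fell. In H19Ter+neo against H19Ter, 2 rose and 1 fell, where 12.5% of all genes rose and 15.2% fell. The part of strain in the members' values was not tested.

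The median of the members' means was 1.98 log2 CPM in H19Ter+neo, 2.40 in H19Ter, and 3.92 in WT. Per length of exon, their mean WT level ran between 0.401 (Trim67) and 69.8 CPM per kb (Arl6ip1) with a median of 4.06 CPM per kb, beside the 6.05 CPM per kb of all genes with a WT mean of at least 1. The gap that defined membership had a median of 1.02 and reached 2.09 for Gng13, and 29 members had a gap of at least 1. Relative to WT, the differences were −1.06 (Tubg2) to −3.25 (Capn11) in H19Ter+neo and −0.86 (Prob1) to −2.19 (Gng13) in H19Ter, with medians of −1.63 and −1.30. Over all genes these medians were 0.01 and −0.01. The 2 comparisons share the WT libraries. Of the members, 53 are protein coding and Nphs1os is antisense, and 17 had fewer than 100 read pairs in at least 1 library, the lowest being 19 for Olig1.

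**Figure D1:**
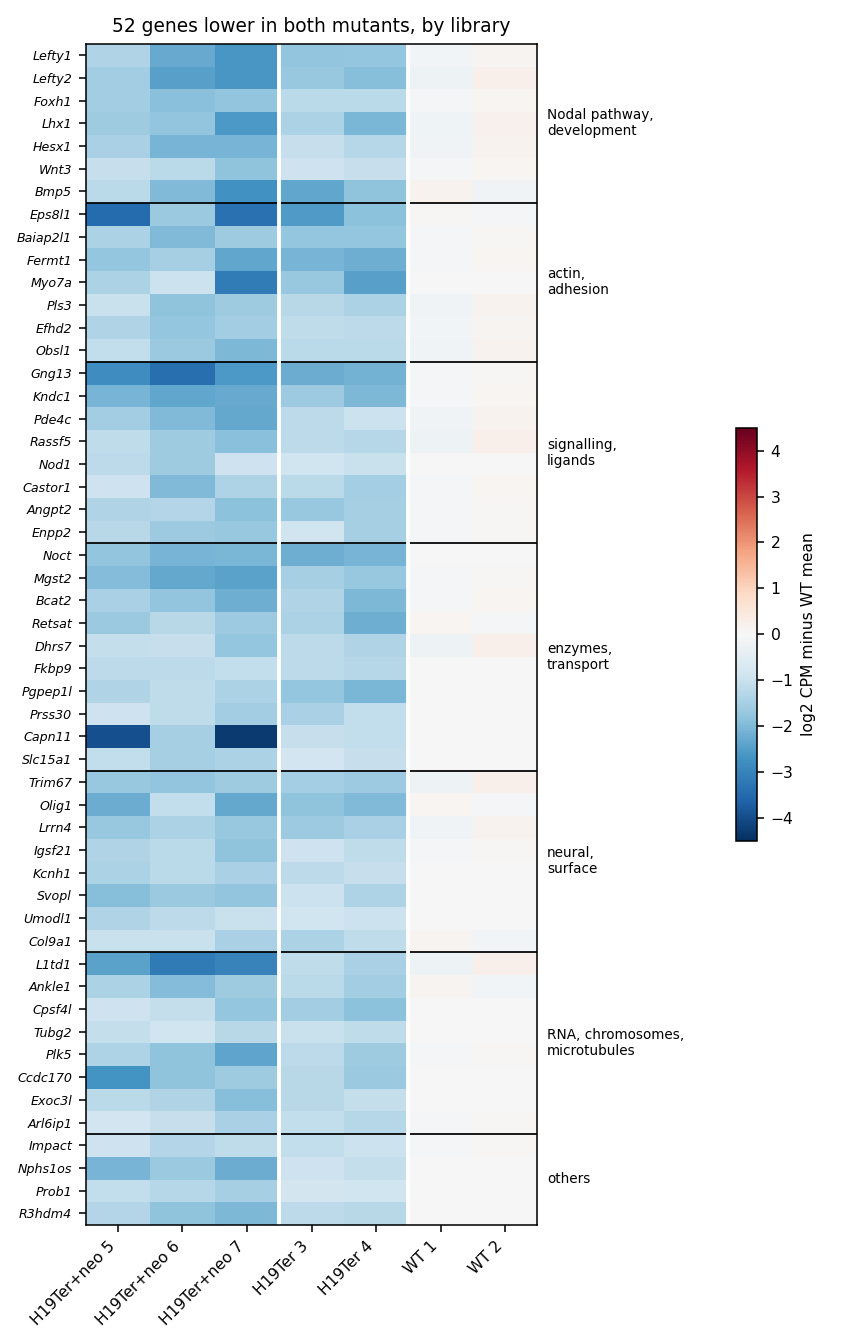
Each row is 1 of 52 members and each column a library, and colour is the log2 CPM minus the mean of both WT libraries. All 5 mutant libraries are blue in every row because the rule required it, and of the H19Ter+neo columns library 6 is the palest for Capn11 and Eps8l1.

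**Figure D2:**
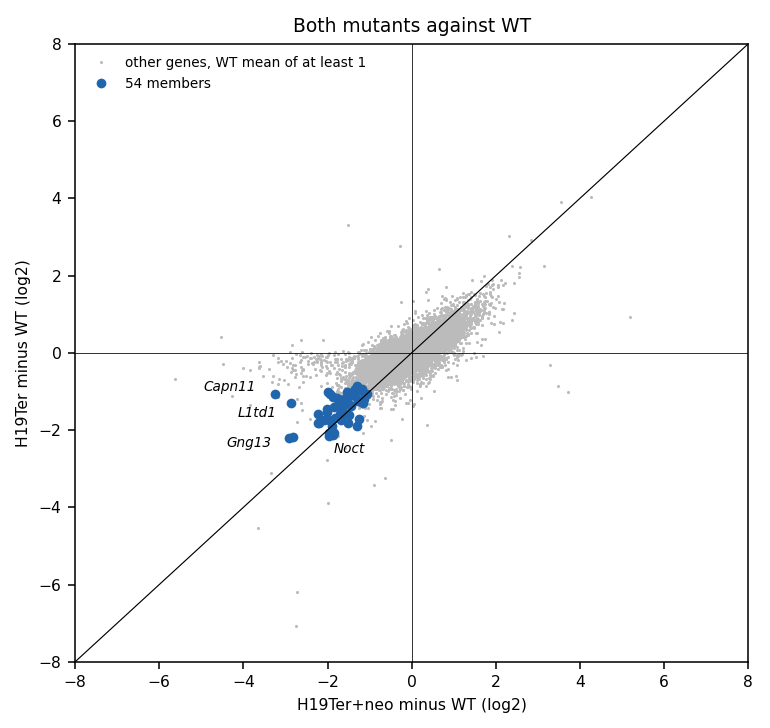
Each point is a gene with a WT mean of at least 1, placed by its log2 difference from WT in H19Ter+neo (horizontal) and in H19Ter (vertical). The diagonal marks equal differences and the 54 members (blue) lie at −1.06 or below and at −0.86 or below on the axes, as the rule required.

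Members of the Nodal pathway and other developmental signals and factors formed a group of 7. Of these, Lefty1 and Lefty2 stand in a gene list of Nodal, activin and BMP signalling. The other 5 were grouped with them after their values were seen. The median difference of the 7 from WT was −1.97 in H19Ter+neo and −1.74 in H19Ter. Lefty2, a secreted Nodal inhibitor (chromosome 1, 180893108 to 180899103), was at 3.50, 2.63 and 2.46 log2 CPM in H19Ter+neo, 3.36 and 3.14 in H19Ter, and 4.82 and 5.30 in WT. Lefty1, its neighbour and paralog (chromosome 1, 180935022 to 180938400), was at 2.71, 1.79 and 1.44 in H19Ter+neo, 2.31 and 2.34 in H19Ter, and 3.93 and 4.20 in WT. Both Lefty genes were thus 4.26-fold to 4.59-fold lower in H19Ter+neo and 3.35-fold to 3.51-fold lower in H19Ter than in WT. The Lefty genes are similar in sequence, and read pairs were counted by STAR in its gene count mode, which leaves out pairs that map to several places, so pairs that fit both genes are not in these levels.

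Foxh1, the factor that takes SMAD signals to DNA, was at 1.31, 1.005 and 1.09 in H19Ter+neo, 1.68 and 1.67 in H19Ter, and 2.78 and 2.97 in WT. It was 3.35-fold lower in H19Ter+neo and 2.30-fold lower in H19Ter than in WT. Lhx1, a LIM homeobox factor of the head organizer and the kidney, was at 3.68, 3.51 and 2.71 in H19Ter+neo, 3.84 and 3.21 in H19Ter, and 5.10 and 5.45 in WT. Hesx1, a homeobox repressor of the anterior embryo, was at 3.24, 2.62 and 2.62 in H19Ter+neo, 3.67 and 3.43 in H19Ter, and 4.55 and 4.85 in WT. For Foxh1 and Hesx1 every H19Ter+neo library also lay below both H19Ter libraries, whereas for Lefty1, Lefty2 and Lhx1 the mutants overlapped.

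The group also held 2 ligands. Wnt3, needed for the primitive streak, was at 3.47, 3.28 and 2.71 log2 CPM in H19Ter+neo, 3.58 and 3.47 in H19Ter, and 4.41 and 4.60 in WT. Bmp5, a bone morphogenetic protein, was at 0.96, 0.15 and −0.55 in H19Ter+neo, −0.19 and 0.35 in H19Ter, and 2.33 and 1.99 in WT, and rested on as few as 45 read pairs in a library. Exons of Gm26903 on the other strand cover 47% of its exonic bases, and how read pairs of that overlap were counted is not known. All 7 genes had their highest H19Ter+neo value in library 5, and 5 of them their lowest in library 7. Among genes with a WT mean of at least 1, 38.3% were highest in library 5 and 41.2% lowest in library 7 of the H19Ter+neo libraries. Library 5 was also the one with the highest Leydig markers, at 33.9 CPM, and the part of other cells in this spread was not tested.

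**Figure D3:**
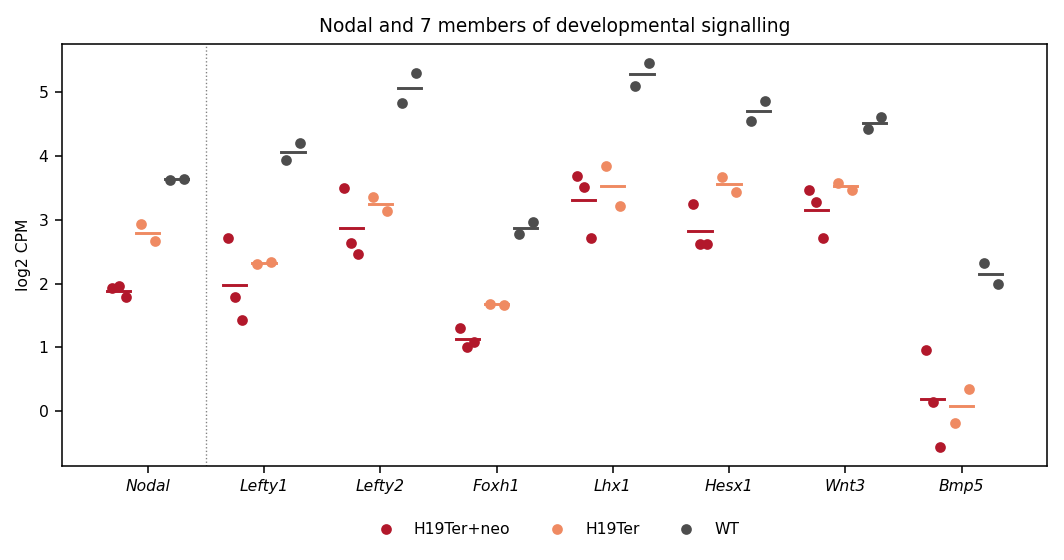
Log2 CPM of Nodal, which is not a member, and of the 7 members grouped as developmental signals and factors, 1 point a library, with a line at the mean of each genotype. H19Ter+neo library 5 is the highest of its genotype for all 7 members, and Nodal steps down between the genotypes without overlap.

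The rest of the Nodal, activin and BMP list, which the rule did not choose, was tested in the fit over all genes. The gene lists were drawn up with earlier results of these data known, and these comparisons share the WT libraries with the rule. Genes named from this list, and from other lists that hold a member, are those with the smallest p in the list. Of its 20 measured genes outside the members, 11 fell and 3 rose in H19Ter+neo against WT, where 26.7% of all genes fell and 27.7% rose. In H19Ter against WT, 6 fell and 2 rose, where 11.0% of all genes fell and 14.1% rose. Nodal was at 1.93, 1.96 and 1.79 log2 CPM in H19Ter+neo, 2.94 and 2.66 in H19Ter, and 3.62 and 3.64 in WT. It fell by 1.74 on the log2 scale in H19Ter+neo (adjusted p = 1.06e-05, limma) and by 0.83 in H19Ter (adjusted p = 0.0037). Smad3, which carries the signal to the nucleus, was at 3.27, 2.77 and 2.99 in H19Ter+neo, 3.70 and 3.61 in H19Ter, and 4.21 and 4.41 in WT, and fell by 1.30 and 0.65 (adjusted p = 5.9e-05 and 0.0146, limma). The H19Ter call of Smad3 was lost without H19Ter library 3 (adjusted p = 0.0570), H19Ter library 4 (0.0906) or WT library 2 (0.127). Bmp4 fell by 1.09 and Smad7, an inhibitory SMAD, by 0.63 in H19Ter+neo (adjusted p = 0.00011 and 0.00027, limma), and their differences in H19Ter were −0.14 and −0.23 (adjusted p = 0.516 and 0.113). In a list of 17 measured pluripotency genes, none of them a member, 15 fell and 1 rose in H19Ter+neo against WT and 8 fell and 1 rose in H19Ter. The median difference of that list was −0.90 in H19Ter+neo and −0.39 in H19Ter. Falls were not particular to these lists. Of 24 growth factor and MAPK feedback genes, 14 fell and 4 rose in H19Ter+neo against WT, and 9 fell and 1 rose in H19Ter. Of 23 heat shock and chaperone genes, 12 fell and 1 rose in H19Ter+neo, and 9 fell and 0 rose in H19Ter. A list of channel and transporter genes of synapses, given below, went the other way.

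Signal transduction and secreted ligands made up 8 members. Gng13, a gamma subunit of G proteins known from taste and smell (chromosome 17, 25717171 to 25719406), had the largest gap, with 0.74, 0.15 and 0.96 log2 CPM in H19Ter+neo, 1.28 and 1.38 in H19Ter, and 3.47 and 3.59 in WT. It was 7.52-fold lower in H19Ter+neo and 4.58-fold lower in H19Ter than in WT. Opposite-strand exons of Chtf18 cover 52% of its exonic bases, and Chtf18 was itself at 4.86, 4.79 and 4.59 in H19Ter+neo, 5.52 and 5.44 in H19Ter, and 6.16 and 6.24 in WT. The libraries were directional, but the sources used here do not state the strand setting of the counting. How read pairs of this overlap were counted is therefore not known. Kndc1, a Ras exchange factor of neurons (chromosome 7, 139894696 to 139941537), was at 3.56, 3.32 and 3.39 in H19Ter+neo, 4.02 and 3.63 in H19Ter, and 5.58 and 5.73 in WT, 4.69-fold and 3.55-fold lower in the mutants. Pde4c, a cyclic AMP phosphodiesterase, was at 2.92, 2.49 and 2.19 in H19Ter+neo, 3.30 and 3.52 in H19Ter, and 4.34 and 4.62 in WT. Angpt2, a ligand of the endothelial receptor TIE2, was low throughout, at 0.12, 0.15 and −0.37 in H19Ter+neo, −0.25 and −0.02 in H19Ter, and 1.43 and 1.51 in WT. Of the 9 endothelial markers measured, 6 rose and 2 fell in H19Ter+neo against WT, where 27.7% of all genes rose and 26.7% fell. The summed level of these markers was 59.2 to 59.6 CPM in H19Ter+neo, 65.5 and 67.6 CPM in H19Ter, and 73.3 and 78.0 CPM in WT. Their part in the values of Angpt2 was not tested. The others were Rassf5, a Ras-association protein of leukocyte adhesion, Nod1, a sensor of bacterial peptidoglycan, Castor1, an arginine sensor of the mTORC1 pathway, and Enpp2, the enzyme autotaxin, with differences from WT of −1.24 to −1.54 in H19Ter+neo and −0.94 to −1.38 in H19Ter.

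Actin, adhesion and motor genes were 7 of the members. Baiap2l1, which bends membranes and bundles actin (chromosome 5, 144264526 to 144358112), was at 6.33, 5.77 and 6.16 log2 CPM in H19Ter+neo, 6.02 and 6.02 in H19Ter, and 7.72 and 7.81 in WT. Eps8l1, an adaptor between receptors and actin (chromosome 7, 4460674 to 4480487), was at 2.59, 4.37 and 2.69 in H19Ter+neo, 3.50 and 4.20 in H19Ter, and 6.10 and 5.98 in WT. Its H19Ter+neo library 6 stood above both H19Ter libraries and the other two below. Myo7a, the unconventional myosin of hair cells, was as uneven, at 5.73, 6.21 and 4.02 in H19Ter+neo, 5.46 and 4.71 in H19Ter, and 7.16 and 7.18 in WT. Fermt1, the integrin activator kindlin-1, was at 0.68, 0.94 and 0.09 in H19Ter+neo, 0.35 and 0.25 in H19Ter, and 2.33 and 2.54 in WT, 3.65-fold and 4.39-fold lower in the mutants. The actin-bundling Pls3, the calcium-binding Efhd2 and the cytoskeletal adaptor Obsl1 differed from WT by −1.47 to −1.601 in H19Ter+neo and by −1.16 to −1.34 in H19Ter. None of the 7 passed the threshold between the mutants.

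Enzymes and transporters formed a group of 10, led by Noct. Noct encodes nocturnin, an enzyme whose RNA cycles with the circadian clock (chromosome 3, 51224447 to 51251644), and was at 5.71, 5.396 and 5.42 log2 CPM in H19Ter+neo, 5.28 and 5.38 in H19Ter, and 7.48 and 7.47 in WT. Noct was 3.89-fold lower in H19Ter+neo and 4.41-fold lower in H19Ter than in WT, on 1617 to 7981 read pairs a library. Noct stands in the lists of immediate early genes and of the circadian clock. Of the 18 other clock genes measured, 6 fell and 6 rose in H19Ter+neo against WT, and 3 fell and 3 rose in H19Ter. Over all genes, 26.7% fell and 27.7% rose in H19Ter+neo against WT, and 11.0% fell and 14.1% rose in H19Ter. Per1, a core repressor of the clock that is also an immediate early gene, was at 6.47, 6.36 and 6.10 in H19Ter+neo, 6.88 and 6.86 in H19Ter, and 7.31 and 7.24 in WT, and fell by 0.96 in H19Ter+neo (adjusted p = 3.6e-05, limma) and by 0.40 in H19Ter (adjusted p = 0.0207). The H19Ter call of Per1 was lost when any of its 4 libraries was left out (adjusted p = 0.0853 to 0.105). Bhlhe41, Cry1 and Nr1d2, which act in feedback loops of the clock, rose by 1.23, 0.47 and 0.43 in H19Ter+neo against WT (adjusted p = 7.1e-05, 0.00011 and 0.00019, limma). Their differences in H19Ter were 0.57, 0.23 and 0.11 (adjusted p = 0.0223, 0.0255 and 0.227, limma). The H19Ter calls of Bhlhe41 and Cry1 were each lost in 4 of 15 alternative settings. Beside the same shares of all genes, 17 of 42 other immediate early genes fell and 8 rose in H19Ter+neo, and 4 fell and 5 rose in H19Ter. Among them Klf4, a Krueppel-like factor, rose by 1.23 and 1.32 and Socs3, an inhibitor of cytokine signalling, by 1.09 and 1.53 in H19Ter+neo and H19Ter (adjusted p = 2.6e-05, 0.00023, 0.00092 and 0.0014, limma). Mcl1, a survival gene, fell by 0.68 and 0.29 (adjusted p = 6.3e-05 and 0.0287, limma), and its H19Ter call was lost in 5 of 15 alternative settings.

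Mgst2, a microsomal glutathione transferase, was at 1.98, 1.63 and 1.54 log2 CPM in H19Ter+neo, 2.45 and 2.26 in H19Ter, and 3.88 and 4.01 in WT. Bcat2, the mitochondrial aminotransferase of branched-chain amino acids, was at 2.53, 2.23 and 1.81 in H19Ter+neo, 2.66 and 1.98 in H19Ter, and 3.900 and 4.11 in WT. Retsat, retinol saturase, was at 4.55, 4.95 and 4.56 in H19Ter+neo, 4.78 and 4.02 in H19Ter, and 6.30 and 6.12 in WT. The mutants were separate for Mgst2 and overlapped for Bcat2 and Retsat. Fkbp9, a prolyl isomerase of the endoplasmic reticulum, was even within each genotype, at 4.19, 4.18 and 4.24 in H19Ter+neo, 4.18 and 4.06 in H19Ter, and 5.35 and 5.35 in WT. Capn11, a calpain of the testis, had the widest spread among the H19Ter+neo libraries, at 0.04, 2.497 and −0.31 in H19Ter+neo, 2.96 and 2.87 in H19Ter, and 3.98 and 4.002 in WT. Pgpep1l, similar to a pyroglutamyl peptidase, was at 1.30, 1.51 and 1.25 in H19Ter+neo, 0.93 and 0.59 in H19Ter, and 2.69 and 2.63 in WT. The dehydrogenase Dhrs7, the serine protease Prss30 and the intestinal peptide transporter Slc15a1 were 2.32-fold to 2.54-fold lower in H19Ter+neo and 1.93-fold to 2.43-fold lower in H19Ter than in WT.

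Neural and surface genes were 8 members of low to moderate level, with WT means of 1.05 to 4.49 log2 CPM. Trim67, a ubiquitin ligase of neurons, was at 0.09, 0.04 and 0.19 in H19Ter+neo, 0.28 and 0.16 in H19Ter, and 1.58 and 2.03 in WT. Lrrn4, a leucine-rich repeat protein of the cell surface, was at 1.65, 1.94 and 1.64 in H19Ter+neo, 1.72 and 1.89 in H19Ter, and 3.19 and 3.52 in WT. Trim67 was 3.24-fold and Lrrn4 3.05-fold lower in H19Ter+neo than in WT, and 3.001-fold and 2.93-fold lower in H19Ter. Olig1, a factor of oligodendrocytes, was at −1.19, −0.07 and −1.27 in H19Ter+neo, −0.75 and −0.94 in H19Ter, and 1.12 and 0.97 in WT. Svopl, similar to a synaptic vesicle transporter, was at 0.73, 0.97 and 0.87 in H19Ter+neo, 1.68 and 1.25 in H19Ter, and 2.63 and 2.66 in WT. The synaptic adhesion protein Igsf21, the potassium channel Kcnh1, the uromodulin-like Umodl1 and the cartilage collagen Col9a1 differed from WT by −1.15 to −1.46 in H19Ter+neo and by −0.94 to −1.29 in H19Ter. A list of 31 channel and transporter genes of synapses, drawn up with earlier results of these data known, held no member. Of its genes, 24 rose and 0 fell in H19Ter+neo against WT, where 27.7% of all genes rose and 26.7% fell. In H19Ter, 17 rose and 0 fell, where 14.1% of all genes rose and 11.0% fell. The 4 measured nerve and glia markers summed to 24.2 to 25.8 CPM in H19Ter+neo, 22.4 and 26.6 CPM in H19Ter, and 28.0 and 28.4 CPM in WT.

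Of the 8 members tied to RNA, chromosomes, microtubules and membranes, L1td1 stood out. L1td1 is a domesticated LINE-1 protein that binds RNA in pluripotent and germ cells (chromosome 4, 98726734 to 98738480), and was at 2.91, 2.14 and 2.32 log2 CPM in H19Ter+neo, 4.20 and 3.86 in H19Ter, and 5.11 and 5.56 in WT. The 3 genotypes did not overlap, and L1td1 was 7.34-fold lower in H19Ter+neo and 2.47-fold lower in H19Ter than in WT. Arl6ip1, which shapes the endoplasmic reticulum, was abundant, at 6.56, 6.41 and 5.97 in H19Ter+neo, 6.34 and 6.15 in H19Ter, and 7.37 and 7.51 in WT. Ccdc170, a coiled-coil protein of Golgi microtubules, was at 0.62, 1.49 and 1.71 in H19Ter+neo, 2.03 and 1.63 in H19Ter, and 3.29 and 3.30 in WT. Plk5, a polo-like kinase, and Ankle1, a nuclease with a LEM domain, had 33 to 188 read pairs a library and were 3.61-fold and 3.14-fold lower in H19Ter+neo and 2.62-fold and 2.63-fold lower in H19Ter than in WT. The cleavage-factor homolog Cpsf4l, the gamma tubulin Tubg2 and the exocyst homolog Exoc3l were 2.09-fold to 2.84-fold lower in H19Ter+neo and 2.10-fold to 3.27-fold lower in H19Ter.

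Impact was the only imprinted member. It encodes an inhibitor of the stress kinase GCN2, is expressed from the paternal allele, and was at 4.81, 4.42 and 4.58 log2 CPM in H19Ter+neo, 4.60 and 4.75 in H19Ter, and 5.67 and 5.78 in WT. Of the 43 other imprinted genes measured, 9 fell and 11 rose in H19Ter+neo against WT, and 5 fell and 10 rose in H19Ter. Over all genes, 26.7% fell and 27.7% rose in H19Ter+neo against WT, and 11.0% fell and 14.1% rose in H19Ter. The genes named next are those with the smallest p in the list. Peg3, a paternally expressed zinc finger gene, fell by 1.26 and 0.76 in H19Ter+neo and H19Ter (adjusted p = 1.1e-06 and 0.00015, limma). The long noncoding RNA Kcnq1ot1 fell by 0.79 in H19Ter+neo (adjusted p = 3.6e-05, limma), and its difference in H19Ter was −0.18 (adjusted p = 0.136). In H19Ter+neo and H19Ter, Grb10, an adaptor that restrains growth, rose by 1.99 and 1.404 (adjusted p = 1.6e-05 and 0.001, limma) and Rasgrf1, a Ras exchange factor, by 1.42 and 0.79 (adjusted p = 1.8e-05 and 0.0033). Beside the same shares of all genes, 9 of 28 targets of the integrated stress response fell and 7 rose in H19Ter+neo, and 3 fell and 6 rose in H19Ter. Nphs1os, antisense to the nephrin gene, was at 0.81, 1.22 and 0.66 in H19Ter+neo, 1.96 and 1.81 in H19Ter, and 2.88 and 2.91 in WT. Exons of Nphs1 cover 45% of its exonic bases on the other strand, and how read pairs of the overlap were counted is not known. Nphs1 was at 4.21, 4.09 and 3.72 in H19Ter+neo, 4.90 and 4.72 in H19Ter, and 5.33 and 5.29 in WT. Prob1, a proline-rich protein, had the smallest H19Ter difference of all members (−0.86), and R3hdm4, an R3H-domain protein, was at 2.57, 2.07 and 1.88 in H19Ter+neo, 2.72 and 2.66 in H19Ter, and 3.86 and 3.93 in WT.

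The comparison of H19Ter+neo with H19Ter was not part of the rule, although the rule used the same mutant values. The mutants differ in the Pgkneo cassette and in the Cre cross that removed it, which cannot be told apart. Their libraries also differ in depth. At an adjusted p under 0.05 in limma, 11 members (20.4%) fell and 1 (1.85%) rose, where 15.2% of all genes fell and 12.5% rose. Of all genes past that threshold 45.3% were higher, and 32.0% when libraries were scaled to the same total, which left 13 members lower and none higher, with the median of all genes at −0.06. Among genes with a WT mean of at least 1, 19.9% fell and 14.3% rose, so the share of members that fell was near the background. The median difference of the members was −0.30, beside 0.01 over all genes and −0.12 over the 5608 genes of like exonic GC content (48.3% to 56.9%, the middle of the members' range) with a WT mean of at least 1. Of these 5608 genes, 27.0% fell. L1td1 fell by 1.57 ± 0.21 (SE, adjusted p = 0.00075) and Nphs1os by 0.99 ± 0.19 (adjusted p = 0.0038). Capn11 had the largest difference, −2.17 ± 0.63 (adjusted p = 0.0271), with its low values in libraries 5 and 7. Pde4c fell by 0.88 ± 0.19 (adjusted p = 0.0077), Hesx1 by 0.73 ± 0.19 (0.0168), Gng13 by 0.72 ± 0.22 (0.0371), Mgst2 by 0.64 ± 0.16 (0.0141) and Svopl by 0.61 ± 0.18 (0.0297). Foxh1 fell by 0.54 ± 0.16 (adjusted p = 0.0287), Prob1 by 0.44 ± 0.12 (0.026) and Kndc1 by 0.40 ± 0.13 (0.0375). Pgpep1l alone rose, by 0.59 ± 0.17 (adjusted p = 0.0295). All 3 H19Ter+neo libraries lay below both H19Ter libraries for each of the 11 that fell and above them for Pgpep1l. As the fit picked these genes for that difference, their separation is a description. Its share over all genes was not counted. The count depended on single libraries, with 5 members past the threshold without H19Ter library 3, 6 without H19Ter library 4 and 19 without H19Ter+neo library 5. With only the libraries of these genotypes in the fit it was 7.

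**Figure D4:**
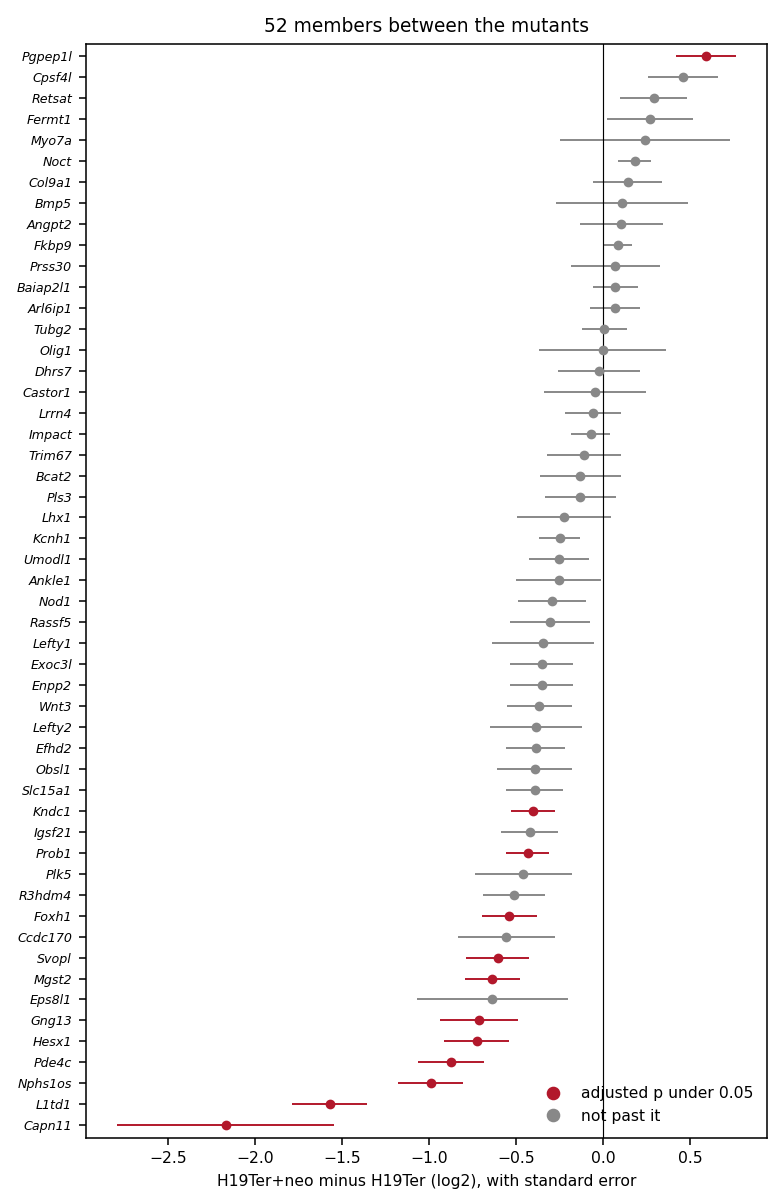
Difference of 52 members between H19Ter+neo and H19Ter on the log2 scale, with its standard error, red where the adjusted p was under 0.05. Most points lie below 0, L1td1 and Capn11 are the lowest and Pgpep1l is the highest.

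The spread among libraries of 1 genotype is given as a description, since in the mutants it comes from values that the rule used, and the genes set beside the members were not matched to their lower mutant level. The median standard deviation over the 3 H19Ter+neo libraries was 0.33 for members, beside 0.11 for all genes with a WT mean of at least 1, and 27 members exceeded the 95th percentile of those genes (0.33). It was 0.13 beside 0.07 in H19Ter and 0.10 beside 0.08 in WT. The lowest mutant value fell in H19Ter+neo library 7 for 30 members (55.6%), in library 6 for 14 (25.9%) and in library 5 for 5 (9.26%), and in H19Ter libraries 3 and 4 for 1 and 4. Among all genes with a WT mean of at least 1, it fell in H19Ter+neo libraries 7, 6 and 5 for 28.1%, 12.8% and 18.3%, and in H19Ter libraries 3 and 4 for 23.6% and 17.2%. Capn11, Myo7a and Eps8l1 had the widest H19Ter+neo spread, but with different orders. Capn11 and Eps8l1 were highest in library 6 and similar in libraries 5 and 7, whereas Myo7a was low in library 7 alone.

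Members lay on 19 chromosomes. Chromosome 7, which holds the H19/Igf2 domain, carried 7 of them (12.96%), namely Eps8l1, Nphs1os, Bcat2, Pgpep1l, Myo7a, Arl6ip1 and Kndc1, and 7.75% of the genes that could have met the rule. Within 10 Mb of the insertion site on that chromosome, 1 of 91 such genes was a member, Kndc1, whose start lies 2.69 Mb from the site. Chromosome 7 was not alone in holding more than its share. Chromosome 1 carried 11.1% of members and 5.69% of such genes, and chromosome 8 carried 9.26% and 5.39%. Chromosome X carried less than its share, 1.85% and 3.76%. The Lefty genes start 41.9 kb apart on chromosome 1. On chromosome 2, Lrrn4 and Fermt1 start 65.0 kb apart with no measured gene between them. Noct and Mgst2 start 436 kb apart on chromosome 3, and of the 13 measured genes between them 5 fell in each mutant against WT and none met the rule. R3hdm4 and Plk5 start 435 kb apart on chromosome 10 with 26 measured genes between them, of which 13 fell in H19Ter+neo, 2 fell in H19Ter and none met the rule.

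Promoter composition was compared because the rule did not use it. RefSeq promoters were matched for 42 members and 9362 genes that could have met the rule, 1 a gene. Members held a median of 10 CG pairs in 300 bases, and all searched promoters a median of 22. Fewer than 10 CG pairs were found in 21 member promoters (50.0%) and in 13.3% of all. With only promoters within 100 bases of the annotated start, it was 15 of 34 members (44.1%) and 11.8% of all. Col9a1 and Mgst2 held 0 CG pairs and Lhx1 held the most. Outside the members, genes with so few CG pairs had a median difference from WT of −0.02 in H19Ter+neo and −0.04 in H19Ter, and the remaining genes −0.10 and −0.08. Searched on both strands, the FOXH1 core TGTNNATT was in 4 member promoters (9.52%) and in 6.61% of all, and the SMAD element CAGAC was in 22 (52.4%) and 46.6%. The FOXH1 core was in the promoters of Fkbp9, Hesx1, Pls3 and Retsat, and the Hesx1 promoter of RefSeq lies 5946 bases from its annotated GENCODE start. The KLF site CACCC was in 35 member promoters (83.3%) and 62.3% of all, the GC box GGGCGG in 23 (54.8%) and 67.0%, and the ETS site CCGGAAG in 0 and 19.3%. These motifs may overlap one another, and their counts describe letters and not binding. They are a part of the motifs searched. The GC box and the ETS site each hold a CG pair, and the part of the members' fewer CG pairs in these counts was not tested. Members not matched included Angpt2, Enpp2, Exoc3l, Foxh1, Impact, Lefty1, Lefty2, Nphs1os, Olig1 and Prob1.

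**Figure D5:**
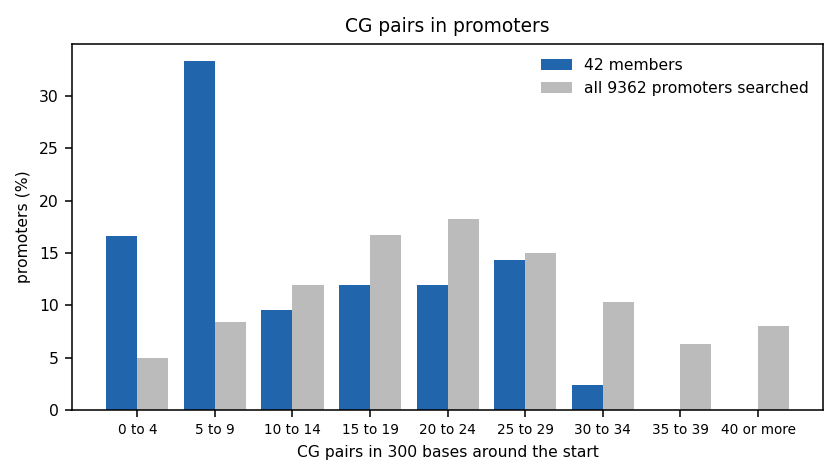
Share of promoters by their number of CG pairs in 300 bases, for the 42 members matched and for all 9362 promoters searched. Members are more frequent in the 0 to 4 and 5 to 9 classes and absent from the classes of 35 and more.

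At the edge of the rule, the last members by gap were Pde4c (0.82), Slc15a1 (0.81) and Arl6ip1 (0.80), and the first genes left out were Cdc42ep4, Slc4a3 and Plcb2, each at 0.79. Olig1 (WT mean 1.05) and Prss30 (1.10) were just above the limit on the WT mean, and Gad2 (0.90), Evx1os (0.89), Otop1 (0.87) and Kiss1r (0.81) met the gap and were just below it. Otop1, left out by its level, had a gap of 2.09, as large as that of Gng13.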

How the data were processed

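The deposited table held, for 20643 genes, log2 CPM values that the authors made with a mean prior count of 2 scaled to library size. Per the submitters' notes, reads were trimmed with Trim Galore 0.6.0 and aligned with STAR 2.7.8 to mm10, and deepTools and edgeR were used. Read pairs were counted by STAR in its gene count mode, which takes pairs that map to a single place and a single gene. The libraries were directional, but the sources used here do not state the strand setting or the annotation of the counting. The values gave back whole read pairs for 100% of entries, within a tolerance of 0.0001, which set the depths. The libraries held 37.5 to 87.3 M read pairs.

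The fit used limma 3.58.1 in R 4.3.3 with genotype as the factor, a mean-variance trend and all 7 libraries, two-sided, with Benjamini-Hochberg adjustment over all genes and a threshold of 0.05. It was tested on simulated data with the same spread setting for all genes. Over the 3 comparisons it recovered 10.4% to 19.4% of 1.5-fold, 68.7% to 82.1% of 2-fold and 98.5% to 100% of 4-fold changes. False calls were 3.70% to 5.56% of calls. A gene that was not called may therefore still differ by a small fold. Members and gene lists were chosen with earlier results of these data known. Named members were the 20 with the largest gap, the 10 with the highest WT mean, those in a list, up to 8 per direction with the largest called difference between the mutants, those within 10 Mb of the insertion, those with starts within 200 kb of another member and the 3 on each side of the gap limit. H19, Igf2, Gm33148 and up to 4 genes with the smallest p from each list that holds a member were added. Other members were named, and all grouped by role, after their values were seen. Gene positions came from GENCODE vM21 (GRCm38), which matched 20615 identifiers. Promoters came from RefSeq (GRCm38.p6). Alternatives were other prior counts, a filter, other scalings, voom weights, thinning to the shallowest library, a fit to 2 genotypes only and leaving out each library. Some items, among them some members, are not reported here by name, and counts and medians over all 54 members include them.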

Additional observations from a re-analysis of the deposited data

Results flagged for a closer look

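Of the 54 members, 12 differed between the mutants, 11 (20.4%) lower and 1 higher in H19Ter+neo, beside 15.2% of all genes lower and 12.5% higher. Among genes with a WT mean of at least 1, 19.9% were lower, so the share of members that fell was near the background. Of such genes with like exonic GC content, 27.0% were lower. The choice of members did not use this comparison, although it used the same mutant values. The H19Ter+neo minus H19Ter difference on the log2 scale was −2.17 for Capn11, −1.57 for L1td1, −0.99 for Nphs1os, −0.88 for Pde4c, −0.73 for Hesx1, −0.72 for Gng13, −0.64 for Mgst2, −0.61 for Svopl, −0.54 for Foxh1, −0.44 for Prob1, −0.40 for Kndc1 and 0.59 for Pgpep1l. L1td1 and Nphs1os kept their calls in all 15 alternatives. The call of Gng13 was lost in 8 of 15, that of Kndc1 in 7 of 15 and that of Pgpep1l in 5 of 15. Capn11 lost its call in 3 of 15, up to an adjusted p of 0.132 without H19Ter library 3. Nphs1os and Gng13 share exons with Nphs1 and Chtf18 on the other strand, whose differences between the mutants were −0.81 and −0.73, and the part of those genes was not tested.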

How the results depend on the processing

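Between H19Ter+neo and H19Ter, 12 members passed the threshold, 10 to 13 did so with other prior counts, a filter, other scalings, voom weights or thinning, and 7 with only these genotypes in the fit. Leaving out each library in turn gave 5 to 19 members, with 5 without H19Ter library 3, 6 without H19Ter library 4 and 19 without H19Ter+neo library 5. Over all genes the count was 5717 and ranged over 2326 to 5404 with a library left out (2326 and 2994 without H19Ter libraries 3 and 4). For H19Ter against WT it was 5187, 3092 with voom weights, and 1408 to 5870 with a library left out (1408 without WT library 2, 2260 and 1892 without H19Ter libraries 3 and 4), and 56.2% of calls were higher, beside 72.5% with the same total per library, 48.3% with only these genotypes in the fit, 78.3% without WT library 2, and 65.0% and 72.0% without H19Ter libraries 3 and 4. For H19Ter+neo against WT it was 11231, and 7730 to 11118 with a library left out. Where an arm had 1 library, that library was assumed to vary like the other groups. The rule gave 54 genes, 46 to 55 with other scalings, prior counts or thinning, and 59 to 130 with a library left out (130 without WT library 1 and 98 without H19Ter library 3), since fewer libraries had to be separate. Among single members, 140 results stayed on their side of the threshold and 40 no longer passed. For other listed genes against WT, 428 stayed, 20 no longer passed and 2 came to pass. No difference of these members and listed genes changed sign, and the cause of the other changes was not tested. No paired analysis was possible because each library had a number of its own and no genotypes shared one. A member had as few as 19 read pairs in a library.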
